A study of Mus musculus with 44 samples.

Results

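The 10 genes described here carry the signal of transforming growth factor beta (TGFb) from the ligand to its feedback inhibitors. They were taken by symbol, which the tables give in upper case (TGFB1, TGFBR1, TGFBR2, SMAD2, SMAD3, SMAD4, SMAD7, SKI, SKIL and PMEPA1): the ligand Tgfb1, the receptors Tgfbr1 and Tgfbr2, the Smad proteins Smad2, Smad3, Smad4 and Smad7, the corepressors Ski and Skil, and Pmepa1. All 10 were among the 12335 genes of the culture table, and 9 were among the 8218 genes of the in vivo table, where Smad2 was not analysed here. TGFb binds Tgfbr2, which recruits and phosphorylates Tgfbr1. Tgfbr1 then phosphorylates Smad2 and Smad3, which enter the nucleus with Smad4 and turn target genes on or off. Smad7, Ski, Skil and Pmepa1 restrain the pathway and are themselves known targets of it, and in the brain and spinal cord TGFb is known for maintaining the identity of microglia, the resident macrophages.

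RNA was sequenced from 44 libraries of C57BL/6 mice. The culture arm had bone marrow derived macrophages grown with M-CSF, a macrophage growth factor (11 libraries), and microglia extracted from the primary glial cultures of newborn mice (12 libraries), each at 0, 1, 3, 6, 16 and 20 h after TGFb1 protein was added at 100 ng/ml. Each time had 2 libraries per cell type except macrophages at 6 h, which had 1. No untreated culture of a later time was analysed here, so TGFb1 and time in culture cannot be told apart. The in vivo arm had cells sorted from spinal cords that had received a 200 kdyn contusion at T12: microglia at time 0 (3 libraries) and at 5 later times (1 and 16 h and days 1, 3 and 7, 2 each), and monocytes, which enter the cord from the blood, from 16 h through day 7 (4 times, 2 each). The labels call the time 0 mice injured like the others, name no sorting gate and do not say whether replicates came from different animals or cultures, so p-values reflect how far these libraries spread and nothing more. The time tag of microglia 1 h replicate 2 reads 2 h, and its title, which reads 1 h, was followed.

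The values are the scaled read values of the deposited tables, in which a gene without a counted read stands at 1. Estimated reads per library were 1171515 to 1879803 in cultured macrophages, 1746405 to 2249042 in cultured microglia, 132117 to 728109 in monocytes and 30505 to 185669 in sorted microglia. A member had a median of 91 estimated reads per library in cultured macrophages and 192 in cultured microglia, but 46 in monocytes and 5 in sorted microglia. Of the 8 microglia markers listed (P2ry12, Tmem119 and Cx3cr1 among them), 7 were measured, and their summed share of the total was 0.476 to 0.731% in cultured microglia and 0.0223 to 0.104% in cultured macrophages. In both cell types that share was highest in a 20 h library. The same markers made up 0.0671 to 0.586% of the sorted microglia and 0.0138 to 0.204% of the monocytes. The 12 neutrophil markers, S100a8 and S100a9 among them, took 4.33 to 22.8% of the sorted microglia and 0.136 to 0.566% of the monocytes, so the libraries labelled microglia carried neutrophil transcripts. The 7 monocyte markers took 0.241 to 0.729% of the sorted microglia and 0.332 to 0.744% of the monocytes, so these ranges largely overlapped.

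Of the 10 genes, 5 had an entry in a RefSeq table of start sites (GRCm38.p6), which is not the build the submitters used. The stretches before the start site of Tgfbr1, Ski and Tgfbr2 are shown, 5′ to 3′, because Tgfbr1 and Ski rose together in both cultured cell types while Tgfbr2, the partner receptor, was not called in either. Capitals mark CAGAC, a motif bound by Smad3 and Smad4, and GGCGC, a GC-rich Smad motif, on either strand (GTCTG and GCGCC on the other). A forward and a reverse match of GGCGC can overlap. The Tgfbr1 stretch is chr4:47352972-47353221 (plus strand), the Ski stretch chr4:155222593-155222785 (minus strand, leaving out the 57 bases nearest the RefSeq start that lie inside a transcript of the GENCODE annotation) and the Tgfbr2 stretch chr9:116175364-116175613 (minus strand).
Tgfbr1: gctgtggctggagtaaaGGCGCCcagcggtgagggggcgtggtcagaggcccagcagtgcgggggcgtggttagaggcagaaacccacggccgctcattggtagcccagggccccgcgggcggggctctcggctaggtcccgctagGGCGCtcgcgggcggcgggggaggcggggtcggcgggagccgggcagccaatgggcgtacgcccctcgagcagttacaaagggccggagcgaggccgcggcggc
Ski: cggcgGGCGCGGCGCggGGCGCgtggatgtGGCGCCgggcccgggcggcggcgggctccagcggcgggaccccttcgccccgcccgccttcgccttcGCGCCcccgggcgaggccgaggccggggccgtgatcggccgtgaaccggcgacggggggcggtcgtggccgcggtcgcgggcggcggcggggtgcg
Tgfbr2: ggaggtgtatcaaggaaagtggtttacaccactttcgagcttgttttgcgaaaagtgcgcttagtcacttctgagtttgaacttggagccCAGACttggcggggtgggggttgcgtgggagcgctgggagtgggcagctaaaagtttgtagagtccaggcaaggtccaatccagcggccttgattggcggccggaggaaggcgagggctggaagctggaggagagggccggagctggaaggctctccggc
The Tgfbr1 stretch held 3 matches of GGCGC and none of CAGAC, that of Ski 6 and 0, and that of Tgfbr2 0 and 1. Among all 32851 windows of 250 bases before a start site in the table, 32.0% held GGCGC and 42.2% held CAGAC on either strand. Of the 2 other members with an entry, Tgfb1 held 1 match of GGCGC and 0 of CAGAC, and Smad3, which rose in macrophages, held none of either. The matches describe these letters only.

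Cultured macrophages were compared with their own 0 h libraries to follow the pathway under its ligand. Pmepa1, Smad7, Skil, Ski and Tgfbr1 rose and stayed above 0 h to the last time. Smad3 rose at 3 h and, with a call near the threshold, in the single library of 6 h. Smad4 dipped at 3 h. The order was Smad7, Skil and Pmepa1 by 1 h, then Tgfbr1, Ski and Smad3 by 3 h. Over the 5 times together 8 of the 10 members changed (limma moderated F test with Benjamini-Hochberg adjustment over all genes), where 31.0% of all genes did. At 1 h 3 members were higher and none lower, against 2.08% and 0.932% of all genes. At 3 h 6 were higher and 1 lower, against 5.96% and 4.82%. The number higher was 6 at 6 h (5.24% of all genes), 5 at 16 h (4.90%) and 5 at 20 h (6.05%), with none lower at those times (6.22%, 4.39% and 5.89%).

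**Figure D1:**
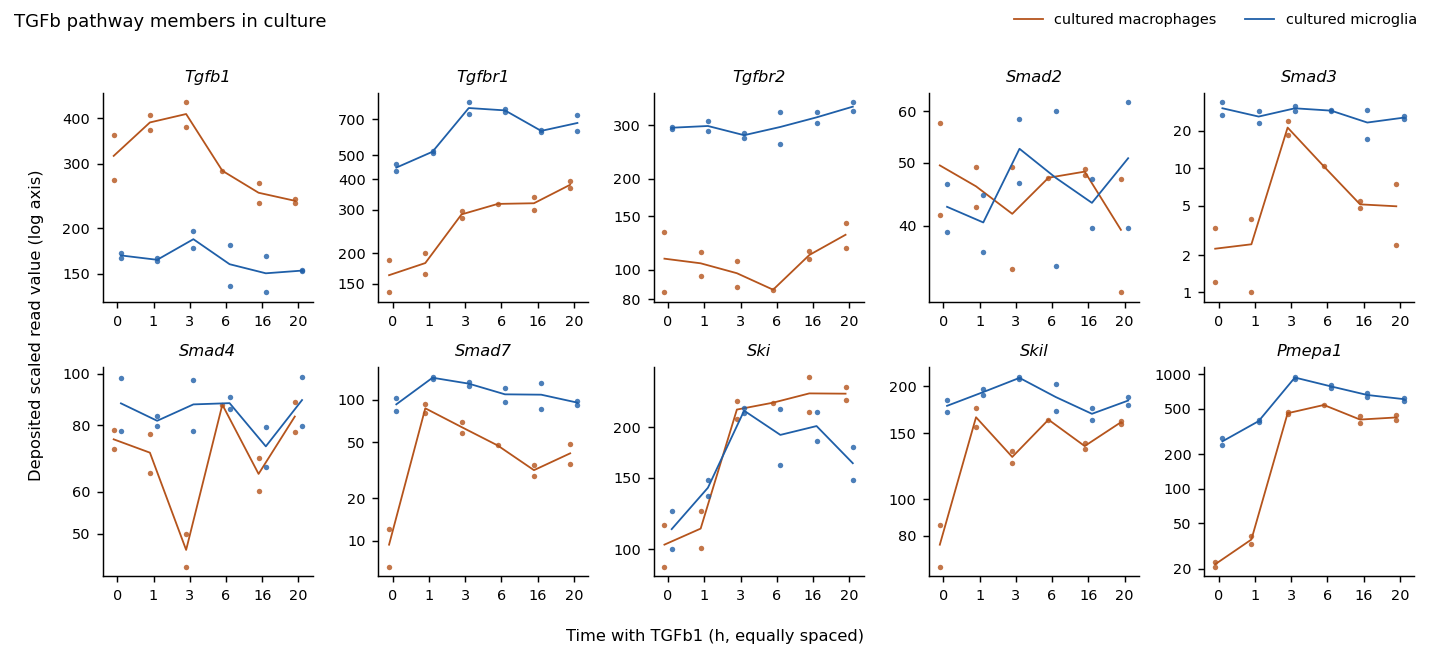
Scaled read value of each member (log axis) against hours with TGFb1, spaced equally, in cultured macrophages and cultured microglia. Points are libraries and lines join the group means. Pmepa1 in macrophages goes from 20.8 to 39.0 at 0 and 1 h to 374 to 541 from 3 h on, while Tgfbr2 and Smad2 show no called change in either cell type.

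The ligand gene Tgfb1 stood in the 2 macrophage libraries at 360 and 272 at 0 h, 407 and 372 at 1 h, 443 and 379 at 3 h, 287 in the single library at 6 h, 266 and 234 at 16 h, and 241 and 235 at 20 h. The libraries of 1 and 3 h were all above those of 6, 16 and 20 h. No time was called against 0 h: the nearest were 20 h (log2 -0.39, SE 0.14, adjusted p = 0.086) and 3 h (log2 0.39, SE 0.14, adjusted p = 0.095). The mean of 16 and 20 h was lower than 1 h by 0.67 on the log2 scale (SE 0.12, adjusted p = 0.00064) in a comparison that called 17.1% of all genes. In it 2 members were lower, Tgfb1 and Smad7, and 3 were higher, Tgfbr1, Ski and Pmepa1.

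Of the receptors, only the type I chain was called. Tgfbr1 stood at 187 and 138 at 0 h, 199 and 165 at 1 h, 296 and 279 at 3 h, 317 at 6 h, 300 and 338 at 16 h, and 392 and 367 at 20 h. Every library from 3 h on lay above every library of 0 and 1 h. The change was 1.78-fold at 3 h (log2 0.83, SE 0.12, adjusted p = 6.8e-05) and 2.35-fold at 20 h (log2 1.23, SE 0.12, adjusted p = 4.1e-07). Tgfbr2, the ligand-binding chain, stood at 84.2 and 133 at 0 h, 115 and 95.3 at 1 h, 107 and 87.8 at 3 h, 85.9 at 6 h, 109 and 115 at 16 h, and 143 and 118 at 20 h. Its 0 h libraries spanned nearly the whole range of the later ones, and the F test gave adjusted p = 0.22.

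The Smads that carry the signal did not move together. Smad3 was nearly absent from macrophages at 0 h, with values of 3.28 and 1.22, and at 1 h, with 3.89 and 1, the latter meaning no counted read. It then stood at 23.9 and 18.7 at 3 h, 10.4 at 6 h, 4.78 and 5.48 at 16 h, and 7.46 and 2.43 at 20 h. The 3 h libraries were above all others, and the change was 7.18-fold on the scale of log2 of the value plus 1 (log2 2.85, SE 0.47, adjusted p = 0.00035). At 6 h the call was near the threshold (log2 1.88, SE 0.58, adjusted p = 0.040). At 16 h the change of 0.99 (SE 0.47, adjusted p = 0.23) was not called, although both libraries were above those of 0 h. Smad4, the common partner, stood at 72.1 and 78.3 at 0 h, 65.1 and 76.9 at 1 h, 49.9 and 43.3 at 3 h, 87.4 at 6 h, 69.3 and 60.3 at 16 h, and 88.3 and 77.8 at 20 h. The 3 h libraries were the lowest, 1.60-fold under 0 h (log2 -0.68, SE 0.18, adjusted p = 0.019), and the 6 h library was above 3 h again (log2 0.90, SE 0.22, adjusted p = 0.026, where 1.33% of all genes were higher). Smad2 ranged over 31.6 to 57.5 with each later time overlapping 0 h (F test adjusted p = 0.93). The Smad4 call at 3 h ended without 0 h replicate 2 or 3 h replicate 2. That of its single 6 h library against 3 h ended without 3 h replicate 2, after quantile normalization (adjusted p = 0.067) and in macrophages alone (0.12). The Smad3 call at 6 h rests on the same single library. It ended without 0 h replicate 2, without most of the microglia libraries left out in turn, and with a pseudocount of 10 (0.096). Quantile normalization, a variance without a trend, and a fit of macrophages alone, with or without a replicate block, also ended it.

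Of the feedback genes, Smad7, Skil and Pmepa1 were called by 1 h and Ski from 3 h on. Smad7, which blocks the receptor and recruits ubiquitin ligases to it, stood at 6.56 and 12.2 at 0 h and at 80.7 and 93.3 at 1 h, its highest time. It was then 69.6 and 58.5 at 3 h, 47.4 at 6 h, 34.6 and 28.8 at 16 h, and 34.8 and 48.6 at 20 h. Every later library was above both libraries of 0 h. The change was 8.77-fold at 1 h (log2 3.13, SE 0.25, adjusted p = 7.8e-08) and 4.21-fold at 20 h (log2 2.07, SE 0.25, adjusted p = 8.2e-06). From 1 h to the mean of 16 and 20 h it fell by 1.24 on the log2 scale (SE 0.22, adjusted p = 0.00040).

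Skil and Ski encode related corepressors that bind Smad complexes, and they differed in timing. Skil stood at 85.2 and 66.1 at 0 h and had reached 156 and 175 by 1 h (log2 1.13, SE 0.13, adjusted p = 8.1e-06). It remained above 0 h, at 125 and 135 at 3 h, 163 at 6 h, 136 and 141 at 16 h, and 162 and 159 at 20 h, and the libraries of 3 and 16 h were below those of 1 h. Ski stood at 115 and 90.6 at 0 h, 124 and 101 at 1 h, and 210 and 232 at 3 h, and its 1 h libraries overlapped those of 0 h. It was 1.96-fold higher at 3 h than at 1 h (log2 0.97, SE 0.17, adjusted p = 0.00086), a comparison in which 3.93% of all genes were higher. The later libraries were at 230 at 6 h, 266 and 218 at 16 h, and 251 and 233 at 20 h. With a replicate block in macrophages alone, the F test of Skil ended (adjusted p = 0.052). That fit also ended the Skil calls at 1 h (0.072), 3 h (0.069) and 16 h (0.054) and the Ski call at 3 h (0.057).

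Pmepa1, a membrane protein that holds receptor Smads away from the receptor, had the largest change of the 10. Its libraries stood at 22.9 and 20.8 at 0 h, 33.1 and 39.0 at 1 h, and 449 and 467 at 3 h. The values after that were 541 at 6 h, 432 and 374 at 16 h, and 445 and 396 at 20 h. The change was 1.61-fold at 1 h (log2 0.69, SE 0.10, adjusted p = 0.00030) and 20.1-fold at 3 h (log2 4.33, SE 0.10, adjusted p = 3.4e-16). The step from 1 to 3 h alone was 12.4-fold (log2 3.64, SE 0.10, adjusted p = 9.1e-15). Fitted on the macrophage libraries alone, the F tests of Tgfb1 (adjusted p = 0.076), Smad3 (0.13) and Smad4 (0.062) were no longer called. The same fit ended the calls of Pmepa1 at 1 h (0.098), Tgfbr1 at 3 h (0.053), Smad3 at 3 h (0.072) and Smad4 at 3 h (0.053), and of Ski at 3 h against 1 h (0.060).

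In cultured microglia fewer of these genes were called than in macrophages, as were fewer of all genes (3.20% against 31.0%). Pmepa1, Tgfbr1 and Ski rose, all from a level well above 0, and the other 7 members were not called at any time against 0 h. The F test called 3 of the 10, where 3.20% of all genes were called. That of Ski was no longer called without 0 h replicate 2, nor with a variance without a trend (adjusted p = 0.078). The number higher was 1 at 1 h (0.243% of all genes), 3 at 3 h (0.413%), 3 at 6 h (0.519%), 3 at 16 h (0.835%) and 2 at 20 h (1.05%). None was lower at any time (0.0973%, 0.259%, 0.713%, 1.01% and 1.13% of all genes).

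Pmepa1 in microglia stood at 279 and 241 at 0 h, 397 and 385 at 1 h, 959 and 921 at 3 h, 808 and 764 at 6 h, 638 and 685 at 16 h, and 628 and 589 at 20 h. No later library overlapped 0 h, and the 3 h libraries were the highest. The change was 3.62-fold at 3 h (log2 1.85, SE 0.10, adjusted p = 2.4e-09) and 2.34-fold at 20 h (log2 1.23, SE 0.10, adjusted p = 4.9e-07). Already at 1 h it was 1.51-fold (log2 0.59, SE 0.10, adjusted p = 0.0085), a call that ended when 0 h replicate 2 (adjusted p = 0.28), 1 h replicate 1 (0.12) or 1 h replicate 2 (0.097) was left out.

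Tgfbr1 in microglia stood at 461 and 430 at 0 h, 511 and 523 at 1 h, 822 and 735 at 3 h, 751 and 772 at 6 h, 624 and 633 at 16 h, and 727 and 626 at 20 h. Its libraries from 3 h on were all above those of 0 and 1 h. The change was 1.74-fold at 3 h (log2 0.80, SE 0.12, adjusted p = 0.0015) and 1.52-fold at 20 h (log2 0.60, SE 0.12, adjusted p = 0.0073). Ski stood at 124 and 100.2 at 0 h, 135 and 148 at 1 h, 223 and 216 at 3 h, 161 and 221 at 6 h, 218 and 185 at 16 h, and 178 and 148 at 20 h. At 3 h it was 1.96-fold higher (log2 0.97, SE 0.17, adjusted p = 0.0056), and at 20 h the change of 0.54 was no longer called (SE 0.17, adjusted p = 0.13). Each call of Ski ended without 0 h replicate 2 (adjusted p = 0.14 at 3 h, 0.39 at 6 h and 0.19 at 16 h), as did those of Tgfbr1 at 16 h (0.30) and 20 h (0.10). The Ski calls also ended without either 3 h library (0.084 and 0.061 at 3 h), 6 h replicate 2 (0.43 at 6 h) or 16 h replicate 2 (0.16 at 16 h). The Tgfbr1 calls ended without 3 h replicate 1 (0.057 at 3 h), 20 h replicate 1 (0.15 at 20 h), and 0 h replicate 1 or either 16 h library (0.11 to 0.22 at 16 h), and at 16 h with equal totals per library (0.050). With a variance without a trend none of these Ski and Tgfbr1 calls at 3, 16 and 20 h was made (0.059 to 0.19).

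None of the 7 other members in microglia was called. Smad7 stood at 103 and 82.6 at 0 h, at 146 and 140 at 1 h and at 126 to 134 at 3 h. Its libraries of 1 and 3 h were thus all above those of 0 h. The change of 0.63 at 1 h was not called (SE 0.25, adjusted p = 0.71). That SE comes from a spread shared with the macrophages. In microglia alone with a replicate block, Smad7 was called. Skil went from 171 and 184 at 0 h to 212 and 209 at 3 h (log2 0.25, SE 0.13, adjusted p = 0.86). Smad3 ranged over 17.3 to 34.1, Smad4 over 66.6 to 98.8, Smad2 over 34.7 to 61.9, Tgfbr2 over 260 to 357 and Tgfb1 over 133 to 197. The 0 h libraries stood at 166 and 171 for Tgfb1, 39.2 and 46.4 for Smad2, 26.9 and 34.1 for Smad3, 77.9 and 97.9 for Smad4, and 292 and 297 for Tgfbr2. Later libraries lay on both sides of these in Tgfb1, Smad2, Smad4 and Tgfbr2, and within or below them in Smad3.

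**Figure D2:**
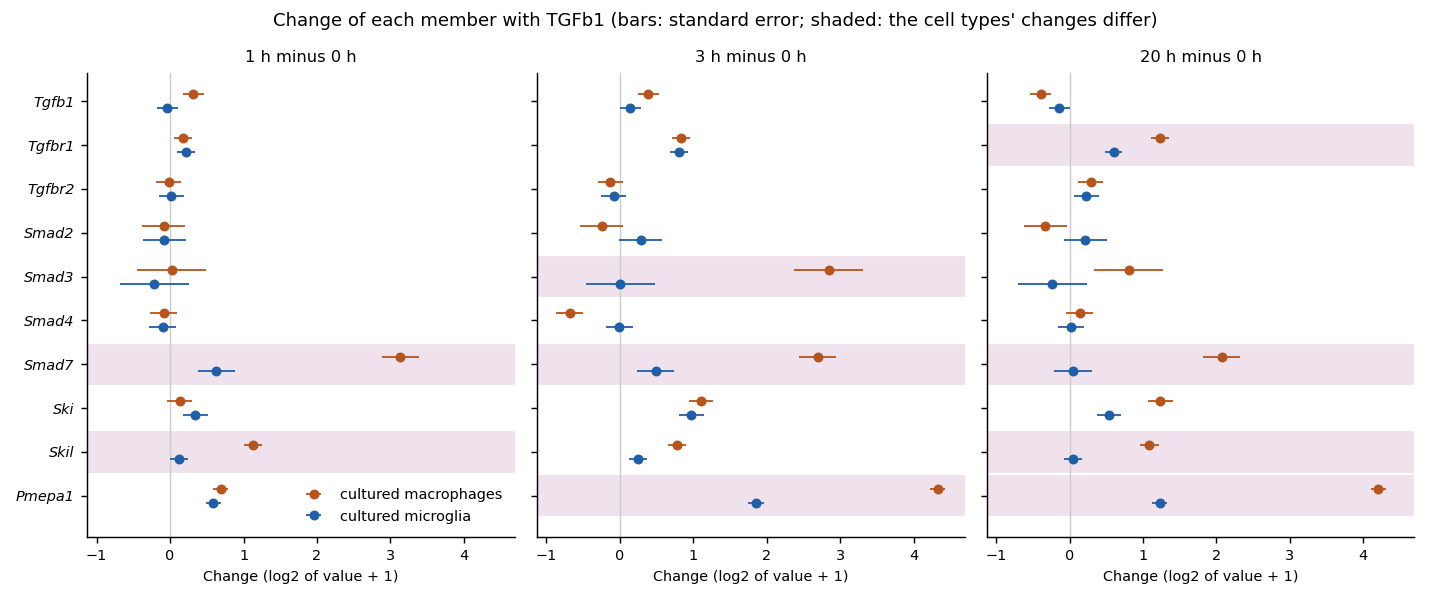
Change of each member from 0 h to 1, 3 and 20 h of TGFb1 (log2 of the value plus 1, horizontal axis) in cultured macrophages and cultured microglia. Points are limma estimates from 2 libraries per group, bars are standard errors, and shaded rows are members whose changes differed between the cell types at an adjusted p under 0.05. Tgfbr1 and Ski lie side by side at 3 h, while Smad7 and Pmepa1 lie far to the right in macrophages.

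Whether the courses themselves differed between the cell types was tested as an interaction. Over the 5 times together 5 of the 10 members differed, where 11.5% of all genes did. They were Pmepa1 (adjusted p = 1e-11), Smad7 (0.00069), Skil (0.0017), Tgfbr1 (0.028) and Smad3 (0.043). At each time every called difference was a lower log2 change in microglia: 2 members at 1 h (0.511% of all genes lower), 3 at 3 h (2.07%), 3 at 6 h (2.44%), 3 at 16 h (1.78%) and 4 at 20 h (1.95%). None differed the other way, where 0.0973%, 1.18%, 2.30%, 1.18% and 1.77% of all genes did.

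At 1 h the change of Smad7 was 5.67-fold smaller in microglia than in macrophages (log2 -2.50, SE 0.36, adjusted p = 0.00062) and that of Skil 2.01-fold smaller (log2 -1.01, SE 0.18, adjusted p = 0.0060). At 3 h the difference was 5.55-fold for Pmepa1 (log2 -2.47, SE 0.15, adjusted p = 3.5e-09) and 7.15-fold for Smad3 (log2 -2.84, SE 0.67, adjusted p = 0.020). On the log2 scale the early changes of Tgfbr1 and Ski were close. The difference at 3 h was -0.03 for Tgfbr1 (95% interval -0.38 to 0.32) and -0.14 for Ski (95% interval -0.64 to 0.36). Tgfbr1 differed only at 20 h (log2 -0.63, SE 0.17, adjusted p = 0.039). The F test of Smad3 was no longer called whichever microglia library was left out. It also ended without macrophage 0 h replicate 2 or either macrophage 3 h library. With a pseudocount of 10 (adjusted p = 0.051) or none (0.068) it was not called either. The same held after quantile normalization (0.11) and with a variance without a trend (0.070). The F test of Tgfbr1 ended with a variance without a trend (0.17). Leaving out macrophage 20 h replicate 1 or any of several microglia libraries ended it too. The single-time call of Smad3 at 3 h ended without microglia 0 h replicate 1, either microglia 3 h replicate, macrophage 0 h replicate 2 or macrophage 3 h replicate 1 (adjusted p from 0.064 to 0.090), and that of Tgfbr1 at 20 h ended without macrophage 0 h replicate 2 (0.18) or microglia 20 h replicate 2 (0.19), among others.

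The size of these differences depends on the scale, since the cell types started from unlike levels. Pmepa1 at 3 h was 436 scaled read units above its 0 h mean in macrophages and 680 above it in microglia, and at 20 h 399 and 349 above it. Smad7 at 1 h was 77.6 units above its 0 h mean in macrophages and 50.4 in microglia. Tgfbr1 at 3 h was 125 units above its 0 h mean in macrophages and 333 in microglia, and at 20 h 217 and 231. Ski at 3 h was 118 and 107 units above it. On this linear scale, given as a description with no test, the rises of Pmepa1 at 3 h and Tgfbr1 at 3 and 20 h were larger in microglia. Those of Smad7 at 1 h, Ski at 3 h and Pmepa1 at 20 h were larger in macrophages.

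At 0 h, before TGFb1, 7 of the 10 members differed between the cell types, where 51.1% of all genes did. Higher in microglia were 6 (29.6% of all genes) and lower was 1 (21.5%). Pmepa1 was 11.4-fold higher in microglia (log2 3.51, SE 0.10, adjusted p = 6.2e-16), Smad3 10.1-fold (log2 3.34, SE 0.47, adjusted p = 6.7e-06) and Smad7 9.32-fold (log2 3.22, SE 0.25, adjusted p = 1.9e-09). The receptors Tgfbr1 and Tgfbr2 were both 2.76-fold higher (log2 1.46, SE 0.12 and 0.17, adjusted p = 3.1e-09 and 5.9e-07) and Skil 2.34-fold (log2 1.23, adjusted p = 9.3e-08). Tgfb1 was 1.85-fold lower (log2 -0.89, SE 0.14, adjusted p = 3.3e-05). Smad2 (log2 -0.19), Smad4 (0.21) and Ski (0.13) were not called. The median of all genes in this comparison was 0.13 on the log2 scale, 0.21 with equal totals per library and -0.03 after quantile normalization, and the 7 calls held under each of these scalings.

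These gaps were then followed over time, as a description with no test of its own. The ratio of the microglia mean to the macrophage mean went from 11.9 at 0 h to 2.05 at 3 h and 1.45 at 20 h for Pmepa1. For Smad7 it went from 9.87 at 0 h to 1.65 at 1 h and was 2.29 at 20 h. For Smad3 it went from 13.5 at 0 h to 1.43 at 3 h and was back at 5.18 at 20 h. Skil went from 2.34 to 1.14 at 20 h and Tgfbr1 from 2.74 to 1.78. The ratio of Tgfbr2 stayed between 2.65 and 3.44, and Tgfb1 was the lower in microglia at every time, at 0.421 to 0.644.

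**Figure D3:**
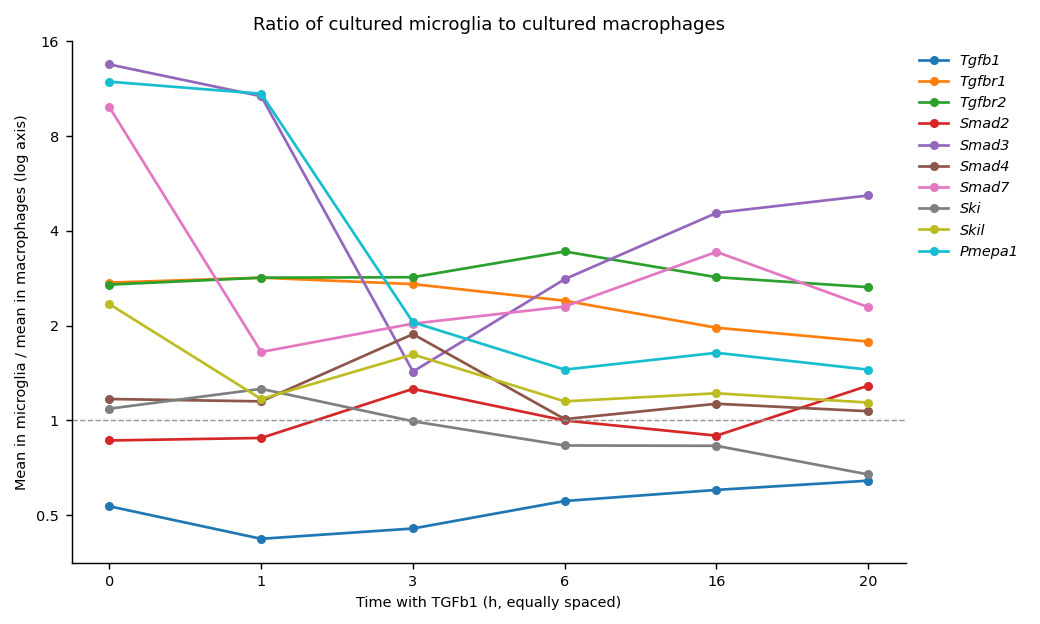
Ratio of the group mean in cultured microglia to that in cultured macrophages (log axis) for each member against hours with TGFb1, spaced equally. The dashed line marks equal means. Pmepa1 falls from 11.9 to 1.45, Smad3 falls to 1.43 at 3 h and returns to 5.18, and Tgfbr2 stays near 3.

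Across the 12 group means, centred within each cell type, the courses of Tgfbr1, Ski and Pmepa1 were much alike. Pearson's r was 0.96 between Ski and Pmepa1, 0.96 between Tgfbr1 and Ski and 0.93 between Tgfbr1 and Pmepa1. Smad7 and Skil correlated at 0.86, and Pmepa1, also called at 1 h in macrophages, correlated with them at 0.39 and 0.56. These are descriptions over groups that share their 0 h libraries. Among 8774 genes with a mean value of at least 20, the nearest to Pmepa1 were B4galt1 (r 0.99), Dmxl2 (0.98) and Tmbim1 (0.97). The nearest to Smad7 were Chd7 (0.97), H1fx (0.93) and Pabpc4 (0.89). Ski had Epb4.1l2 (0.98), Gna15 (0.97) and Pmepa1, and Tgfbr1 had X99384 (0.96), Ski and Epb4.1l2 (0.95). Skil had Btf3l4 (0.96), Pramef8 (0.91) and Slc29a1 (0.91), Smad3 had Pxn (0.97), Lemd3 (0.96) and Spire1 (0.95), Smad4 had Ascc2 (0.93), Asxl2 (0.91) and Zfp771 (0.90), and Tgfb1 had Rbm22 (0.98), Trim67 (0.94) and Ninj1 (0.93).

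Other genes of the pathway were counted by role in the same culture fits. Of 16 immediate targets measured, 12 changed over time in macrophages and 6 in microglia, where 31.0% and 3.20% of all genes did. Junb, a transcription factor, stood at 303 to 325 at 0 h and 1588 to 1631 at 1 h in macrophages (log2 2.35, SE 0.08, adjusted p = 2.2e-13), and at 452 to 491 and 833 to 860 in microglia (log2 0.84, SE 0.08, adjusted p = 5.4e-06). Tgfbi, a secreted matrix protein, went from 504 to 521 at 0 h to 3011 to 3397 at 3 h in macrophages, and from 110 to 174 to 292 to 307 in microglia (log2 1.10, SE 0.13, adjusted p = 0.00011). Id1, an inhibitor of helix-loop-helix factors, rose from 74.3 to 95.5 at 0 h to 510 to 539 at 1 h in macrophages (log2 2.62, SE 0.12, adjusted p = 2.4e-11). In microglia Id1 was at 390 to 428 at 0 h and 340 to 361 at 1 h, with no call at any time. Id2 and Bhlhe40 rose at 1 h in both cell types. Id2 went from 1027 to 1088 to 2039 to 2055 in macrophages and from 941 to 1003 to 1430 to 1514 in microglia (log2 0.60, SE 0.05, adjusted p = 1.3e-06). Bhlhe40 went from 89.2 to 106 to 209 to 226 in microglia (log2 1.15, SE 0.17, adjusted p = 0.0015). The course differed between the cell types in 10 of the 16, where 11.5% of all genes differed.

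Of 8 ligands and activators measured, 4 changed in macrophages and 2 in microglia, against 31.0% and 3.20% of all genes. The 2 in microglia were Lrrc33 and Tgfb2. Furin, the protease that cleaves the TGFb precursor, went from 323 to 334 at 0 h to 896 to 927 at 3 h in macrophages (log2 1.47, SE 0.13, adjusted p = 9.3e-08). In microglia it went from 157 to 165 to 242 to 254 (log2 0.62, SE 0.13, adjusted p = 0.019). The F test of Furin in microglia was not called (adjusted p = 0.075). Lrrc33, which tethers latent TGFb1 to the surface of microglia and macrophages, fell in both cell types. It went from 395 to 397 at 0 h to 211 to 260 at 3 h in macrophages (log2 -0.76, SE 0.13, adjusted p = 0.00053) and from 320 to 345 to 165 to 204 in microglia (log2 -0.85, SE 0.13, adjusted p = 0.0020). Thbs1, an activator of latent TGFb, rose in macrophages from 51.4 to 63.6 at 0 h to 265 to 317 at 3 h, and Itgav, an integrin chain, from 151 to 201 to 245 to 281. Tgfb2 changed in the microglia F test (adjusted p = 0.027), from 6.49 to 8.70 at 0 h to 17.6 to 23.9 at 20 h, with no call at a single time.

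Of 13 inhibitors other than the members, 8 changed over time in macrophages and 0 in microglia by the F test (limma; 2 of 13 at an unadjusted p under 0.05). Of all genes 31.0% changed in macrophages and 3.20% in microglia, so 0 of 13 in microglia is near the background. The 4 with the smallest p were Wwp1, Tgif2, Fkbp1a and Smurf1. Smurf1, a ubiquitin ligase that works with Smad7, stood at 28.4 to 34.3 at 0 h and 53.0 to 60.9 at 3 h in macrophages. Wwp1, another ubiquitin ligase, stood at 56.9 to 68.9 at 0 h and at 10.4 in the single 6 h library. Among 12 receptors and adaptors 2 changed in macrophages, Acvr2a and Hgs, a smaller share than the 31.0% of all genes, and 1 in microglia (3.20% of all genes): Dab2, an endocytic adaptor of TGFb receptors, fell from 196 to 204 at 0 h to 88.5 to 116 at 16 h (log2 -0.97, SE 0.12, adjusted p = 0.00010). Its course differed from that in macrophages (adjusted p = 0.00045), where it stayed at 289 to 396. Of 6 other Smads and partners, Crebbp alone changed, in macrophages (adjusted p = 0.012, where 31.0% of all genes did), from 26.9 to 37.2 at 0 h to 73.8 to 76.9 at 3 h.

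After spinal cord injury the pathway genes were followed in sorted microglia against time 0. None of the 9 members was called over the injury times by the limma F test, where 1.97% of all genes were, and 1 of 9 had an unadjusted p under 0.05 (Tgfbr2, adjusted p = 0.20). Of the 45 single comparisons with time 0, 0 were called and 6 had an unadjusted p under 0.05. The share of all genes called was 0.0730% for 1 h and 0.694% for 16 h, and by day it was 0.913% (day 1), 0.00% (day 3) and 0.438% (day 7). In bulk RNA of sorted cells, a gene lower per cell and fewer cells that carry it cannot be told apart.

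**Figure D4:**
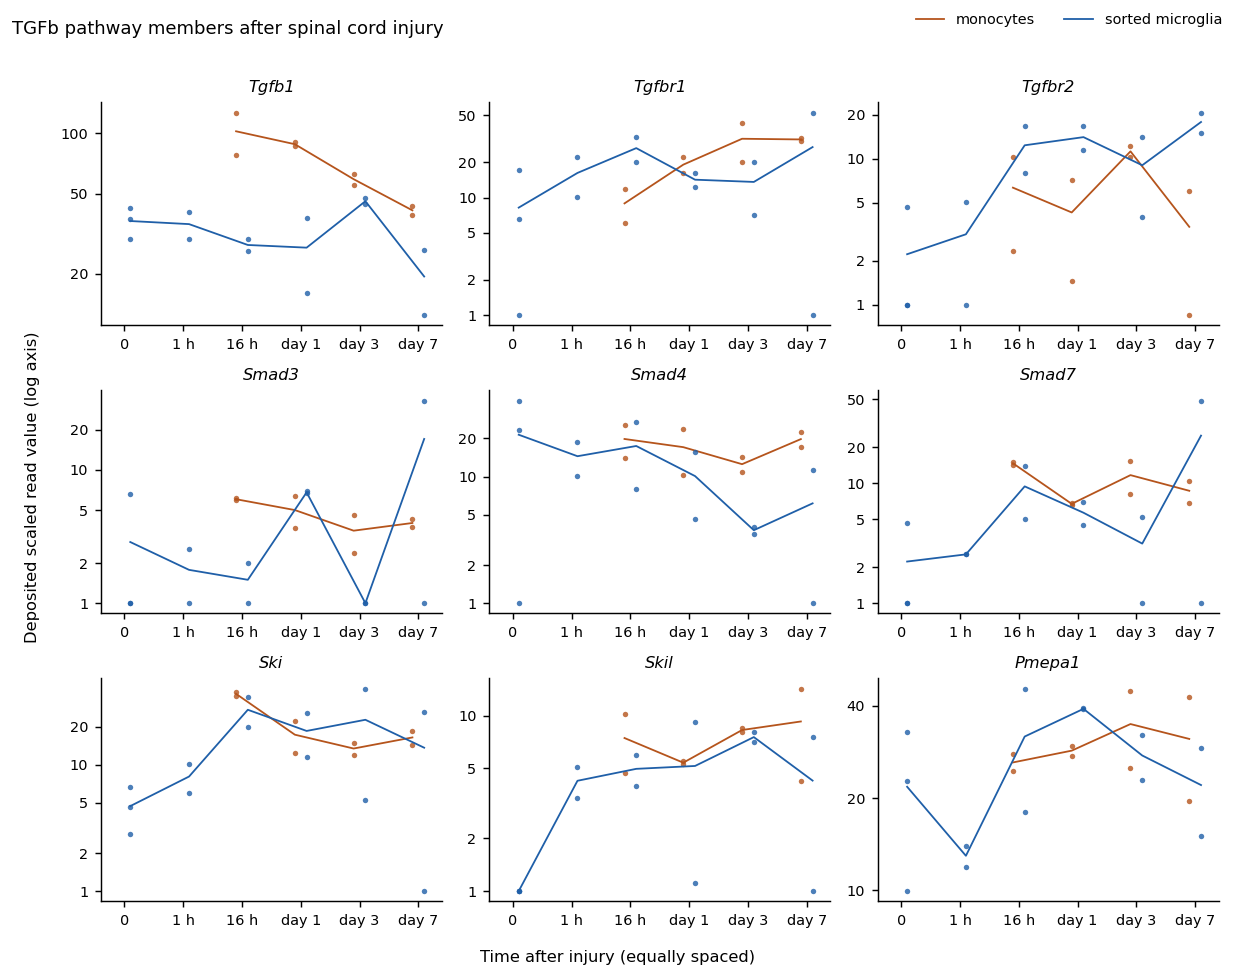
Scaled read value of each of the 9 members measured in vivo (log axis) against time after injury, spaced equally, in monocytes and sorted microglia. Points are libraries, lines join the group means, and 1 stands where no read was counted. Tgfb1 in monocytes lies above microglia of the same time at 16 h and at days 1, 3 and 7, and comes down to 39.1 and 43.5 at day 7.

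Tgfbr2 in sorted microglia was at 1, 1 and 4.67 at time 0, 1 and 5.09 at 1 h, 7.99 and 16.8 at 16 h, 16.7 and 11.5 at day 1, 14.1 and 4.02 at day 3, and 15.0 and 20.8 at day 7. The libraries of 16 h, day 1 and day 7 lay above those of time 0, by 2.16 at 16 h (SE 0.89, adjusted p = 0.34), 2.39 at day 1 (SE 0.89, adjusted p = 0.23) and 2.72 at day 7 (SE 0.89, adjusted p = 0.16) on the log2 scale. Ski was at 6.63, 2.83 and 4.67 at time 0, 5.97 and 10.2 at 1 h, 20.0 and 34.6 at 16 h, 25.6 and 11.5 at day 1, 5.28 and 40.2 at day 3, and 26.3 and 1 at day 7. Its 16 h libraries did not overlap time 0 (log2 2.31, SE 0.90, adjusted p = 0.29). Skil was at 1 in all 3 libraries of time 0, where no read was counted, and at 7.04 and 8.04 at day 3 (adjusted p = 0.25). One read was worth 0.853 to 4.67 units in these libraries, so each of these values rests on few reads. Depth differed between times. One read was worth 2.83 to 4.67 units at time 0 (30505 to 51973 estimated reads) and 0.988 to 0.998 at 16 h (141730 to 151785). It was worth 1.11 to 2.30 units at day 1, 1.76 to 4.02 at day 3 and 3.76 to 4.15 at day 7. The part of depth in these differences was not tested.

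The other members in sorted microglia spread widely within a time. Pmepa1 was at 9.95, 22.7 and 32.7 at time 0, 11.9 and 14.0 at 1 h, 18.0 and 45.5 at 16 h, 38.9 and 39.1 at day 1, 22.9 and 32.2 at day 3, and 15.0 and 29.0 at day 7. Only its day 1 libraries were above all 3 of time 0 (log2 0.96, SE 0.63, adjusted p = 0.54). Tgfb1 was at 29.9, 42.5 and 37.4 at time 0, 29.8 and 40.7 at 1 h, 26.0 and 29.6 at 16 h, 37.8 and 16.1 at day 1, 47.5 and 44.2 at day 3, and 26.3 and 12.5 at day 7. Both libraries were below time 0 at 16 h (log2 -0.37, SE 0.50, adjusted p = 0.85) and day 7 (log2 -0.96, SE 0.50, adjusted p = 0.35), and both were above it at day 3 (log2 0.33, SE 0.50, adjusted p = 0.83). Tgfbr1 at day 7 had libraries at 52.7 and 1, Smad7 at 48.9 and 1, and Smad3 at 1 and 33.2. Smad4 was at 39.8, 1 and 23.4 at time 0 and at 3.52 and 4.02 at day 3. The neutrophil share of the same libraries was 16.0 to 22.2% at time 0, 11.4 to 15.0% at 16 h, 7.83 to 10.6% at day 1, 4.33 to 17.0% at day 3 and 14.7 to 15.0% at day 7. The share was highest, at 22.8%, in a library of 1 h, and its part in these values was not tested.

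In monocytes no member was called over time. The mean of Tgfb1 was lower at day 7 than at 16 h and that of Tgfbr1 higher. Tgfb1 was at 77.7 and 126 at 16 h, 90.2 and 85.8 at day 1, 55.2 and 62.8 at day 3, and 39.1 and 43.5 at day 7. The day 7 libraries were the lowest (log2 -1.25 against 16 h, SE 0.54, unadjusted p = 0.03, adjusted p = 0.65). Tgfbr1 was at 11.7 and 6.13 at 16 h, 16.1 and 21.9 at day 1, 19.8 and 43.3 at day 3, and 32.3 and 30.0 at day 7, with 16 h the lowest (log2 1.75 at day 7, SE 1.08, adjusted p = 0.97). Of 27 single comparisons with 16 h, 0 were called and 1 had an unadjusted p under 0.05, where 0.00%, 0.170% and 0.596% of all genes were called at days 1, 3 and 7. By the limma F test 0 of the 9 members were called (0.572% of all genes were) and 0 had an unadjusted p under 0.05. With library weights Tgfb1 (adjusted p = 0.039) and Tgfbr1 (0.030) were called. On simulated data of this size, 0 of 100 genes changed by 1 and 4 of 100 changed by 2 on the log2 scale between 16 h and day 7 were recovered, so changes of that size would mostly not be called.

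Ski in monocytes was at 37.8 and 35.1 at 16 h, 12.5 and 22.2 at day 1, 11.99 and 14.9 at day 3, and 18.7 and 14.2 at day 7. The 16 h libraries were the highest (log2 -1.38 at day 3, SE 0.99, adjusted p = 1). Pmepa1 ranged over 19.5 to 44.6, Smad4 over 10.3 to 25.7, Smad7 over 6.60 to 15.3, Skil over 4.25 to 14.2, Smad3 over 2.40 to 6.34 and Tgfbr2 over 0.850 to 12.2, with libraries of the first and last times overlapping in Pmepa1, Smad4, Skil and Tgfbr2.

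Monocytes and sorted microglia were compared over the 4 times they share. Tgfb1 was higher in monocytes, 2.41-fold (log2 1.27, SE 0.27, adjusted p = 0.0029), and the other 8 members were not called. In this comparison 7.57% of all genes were called and 3.97% were higher in monocytes. The microglia libraries of those times stood at 12.5 to 47.5 and those of the monocytes at 39.1 to 126, and the lowest monocyte libraries, those of day 7, lay below the highest microglia libraries, those of day 3. Within each matched time the monocyte libraries lay above those of the microglia, with no single time called. At matched times the difference was 1.80 at 16 h (SE 0.54, adjusted p = 0.12), 1.79 at day 1 (SE 0.54, adjusted p = 0.15), 0.35 at day 3 (SE 0.54, adjusted p = 0.89) and 1.14 at day 7 (SE 0.54, adjusted p = 0.35). Across all alternatives run it stayed between 1.04 and 1.47 and was called in each. The median of all genes was 0.05 in this comparison and 0.20 with equal totals per library. The nearest of the other members were Tgfbr2, lower in monocytes by 1.16 (SE 0.49, adjusted p = 0.15), and Smad4, higher by 1.17 (SE 0.55, adjusted p = 0.21). The neutrophil markers took 4.33 to 17.0% of these microglia libraries and 0.136 to 0.566% of the monocytes, and their part in the Tgfb1 difference was not tested. Over all times, monocyte markers took 0.241 to 0.729% of the sorted microglia and 0.332 to 0.744% of the monocytes. Their part was not tested either.

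Of the 38 other pathway genes measured in vivo, 5 passed the F test in sorted microglia and 3 in monocytes, where 1.97% and 0.572% of all genes did. Of the 6 ligands and activators measured these were Thbs1 and Lrrc33 in microglia and Thbs1 and Inhba in monocytes. Thbs1 in monocytes stood at 1032 to 1153 at 16 h, 522 to 647 at day 1, 242 to 271 at day 3 and 67.1 to 96.0 at day 7 (log2 -3.75 at day 7, SE 0.49, adjusted p = 4e-05). Inhba, a subunit of activin, stood at 27.7 to 67.6 at 16 h and 0.850 to 6.00 at day 7 in monocytes (log2 -3.62, SE 0.85, adjusted p = 0.041). In the monocyte libraries of day 7, 1 read was worth 0.850 and 0.750 units, so these values rest on few reads. Lrrc33 in microglia stood at 14.0 to 82.1 at time 0 and 1 to 4.15 at day 7 (log2 -3.28, SE 0.70, adjusted p = 0.035). A single read was worth 3.76 and 4.15 units in the day 7 microglia libraries, so these day 7 values stand at the floor or at 1 read. Of 10 immediate targets, Id2, Gadd45b and Tgfbi passed in microglia. Gadd45b, a stress-induced gene, stood at 1 to 5.66 at time 0 and 46.7 to 138 at day 1 in microglia (log2 4.77, SE 0.87, adjusted p = 0.0040). At time 0, where 1 read was worth 2.83 to 4.67 units, its values rest on very few reads. Id2 stood at 19.9 to 46.7 at time 0 and 94.4 to 116 at day 1 (adjusted p = 0.079 at that time). None of the 10 receptors and adaptors, 10 inhibitors or 2 other Smads and partners passed in either cell type.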

How the data were processed

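RNA was extracted with miRNeasy, per the labels' protocols. The alignment used TopHat and the mouse build mm9, per the submitters' processing notes. Version, counter, annotation and scaling: not given in the sources used here. Deposited tables hold a signal per gene: 86.5 to 90.7% of the low values of a library were whole multiples of a single step (tolerance 0.05 steps), read as 1 scaled read, and a gene without a counted read stands at 1. The design had allowed for another unit, and its branch for normalized values was used. Reads were estimated as value over step. A row naming no gene was left out (at most 0.0165% of a total). Levels are not compared between the tables, which were scaled apart.

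The fit was by limma 3.58.1 (R 4.3.3) on log2(value + 1), a group-means model with empirical Bayes (trend, robust), and its F tests and contrasts were adjusted over every gene of the table by the Benjamini-Hochberg method (called at an adjusted p under 0.05). All 12335 and 8218 genes were fitted. Both cell types of a table were in the same fit, so they share the estimate of the spread of each gene. The pseudocount understates the change of low genes, and folds are on that scale. Fits were tested on simulated data: for macrophages at 3 h, on 12335 genes, 75 of 100 genes changed by 1 and 99 of 100 changed by 2 on the log2 scale were recovered. Libraries of a group differed by more than sampling noise. Same-numbered libraries did not deviate together, so no pairing was used.

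The members and lists were chosen with earlier results of these data known. All members are reported. Of each other pathway role, counts and up to 4 genes with the smallest adjusted p are named (1 immediate target is not reported here), and for each called member the 3 most correlated genes. A gene whose name is shared with an overlapping or antisense gene cannot be resolved in these tables. Alternatives covered the pseudocount, a low-value filter, scaling, library weights, the variance trend, each cell type alone, a replicate block and leaving out each library. Motifs were counted in RefSeq promoter windows with Python 3.11.15.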

Additional observations from a re-analysis of the deposited data

Results flagged for a closer look

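The course under TGFb1 differed between cultured microglia and macrophages by a tested interaction (limma, adjusted over all genes) in 5 members at the single times below, each value being the log2 change in microglia minus that in macrophages. For Pmepa1 it was -2.47 at 3 h, -2.97 at 6 h, -2.79 at 16 h and -2.98 at 20 h (adjusted p = 3.5e-09, 1.9e-09, 3.9e-10 and 1.2e-10), and every microglia and macrophage library of these times was above its own 0 h. For Smad7 it was -2.50 at 1 h, -2.21 at 3 h, -2.04 at 6 h, -1.50 at 16 h and -2.03 at 20 h (adjusted p = 0.00062, 0.00093, 0.0042, 0.023 and 0.0020). Its call at 16 h ended without microglia 0 h replicate 1 (adjusted p = 0.12), microglia 16 h replicate 1 (0.16), macrophage 0 h replicate 1 (0.11) or macrophage 16 h replicate 2 (0.076), with a pseudocount of 10 (0.080), after quantile normalization (0.056) and with a variance without a trend (0.067). For Skil it was -1.01 at 1 h, -1.03 at 6 h, -0.95 at 16 h and -1.04 at 20 h (adjusted p = 0.0060, 0.0038, 0.0040 and 0.0016). For Smad3 it was -2.84 at 3 h (adjusted p = 0.020). The macrophage libraries of that time were at 23.9 and 18.7 and those of microglia at 31.8 and 29.1. The Smad3 call ended after quantile normalization (adjusted p = 0.069) and on leaving out any of several libraries. For Tgfbr1 it was -0.63 at 20 h (adjusted p = 0.039). The Tgfbr1 call ended with a variance without a trend (0.16) and without any of many libraries of both cell types. The macrophages at 6 h rest on 1 library, which was assumed to vary like the others.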

How the results depend on the processing

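No result reversed its direction in any alternative. The count of 5 members whose course differed between the cultured cell types was 3 with a variance without a trend, Tgfbr1 and Smad3 being lost. Smad3 was also lost whichever microglia library was left out, and Tgfbr1 without some of them. In macrophages 8 members changed; 5 did in a fit of the macrophages alone, where 1142 genes were called in place of 3830. In microglia leaving out 1 library gave 2 or 3. The count in monocytes over the injury times was 0, and 2 (Tgfb1 and Tgfbr1) with library weights. The 7 members differing at 0 h and the 1 differing between monocytes and sorted microglia kept their counts in each alternative run. Of 75 called single comparisons of a member, 46 kept their call in all alternatives that were run for them. Same-numbered libraries deviated together in no set (correlations from -0.044 to 0.087), so the numbers are not read as pairs; with a replicate block, macrophages alone gave 4 members, the in vivo counts stayed at 0, 0 and 1, and cultured microglia, by the letters in their column names (added after seeing the data), gave 4, with Smad7 gained. Without the single macrophage library of 6 h, the 6 h comparisons could not be made. Sorted microglia are limited by depth, with a median of 5 estimated reads per member and library.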
